A study of Mus musculus with 12 samples.

Results

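The genes described here are the chemokines and their receptors in mouse hearts, chosen as genes of the table whose symbol is that of a Ccl, Cxcl, Ccr, Cxcr or Ackr gene with a number, or is Cx3cl1 or Cx3cr1. These were 59 of 53807 symbols, and 22 of the 59 were expressed, which means that 3 or more of the 12 libraries reached a value of 10. Of all 53807 symbols, 13392 genes met the same minimum. Chemokines are small secreted or membrane-bound proteins that guide the movement of leukocytes and other cells along gradients. They act through G protein-coupled receptors that signal by inhibitory G proteins and beta-arrestins. Atypical chemokine receptors bind the ligands without such G protein signalling and mainly take them up and degrade them. In the heart, endothelial cells, fibroblasts and resident macrophages are known sources of these ligands, and monocytes recruited through Ccr2 are a well studied part of the response to pressure overload.

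The libraries are from hearts of C57BL/6 mice aged 4 months, with 3 libraries per group, each carrying its own number in its label, which is taken here as the number of a mouse. In the names of the libraries, KI stands for CIP-OE. Values of a group are given in the order KI_TAC_3577, KI_TAC_3579 and KI_TAC_3587, then Ctrl_TAC_3586, Ctrl_TAC_3800 and Ctrl_TAC_4231, KI_Sham_3643, KI_Sham_3644 and KI_Sham_3737, and Ctrl_Sham_4010, Ctrl_Sham_4011 and Ctrl_Sham_4033. CIP-OE-TAC hearts came from animals with the CIP-KI-flox allele and the aMHC-Mer-Cre-Mer transgene after transverse aortic constriction (TAC), a narrowing of the aorta that puts a pressure load on the heart. Ctrl-TAC hearts came from CIP-KI-flox littermates without Cre after the same surgery. CIP-OE-Sham and Ctrl-Sham hearts came from animals of these genotypes after sham surgery. Tamoxifen followed the surgery by 2 weeks, and the hearts were taken 8 weeks after it. All 4 groups carry the CIP-KI-flox allele, a CIP transgene behind a floxed stop that activated Cre excises. Only the CIP-OE groups carry the recombinase, which the cardiac alpha-myosin heavy chain promoter drives in cardiomyocytes. CIP and activated Cre therefore cannot be told apart. The values are those deposited, which are read counts scaled by a factor for each library, called normalized counts here. The libraries held 6990445 to 7704812 reads. Mlip, the gene of CIP, had 5909 to 8232 normalized counts in CIP-OE-TAC, against 823 to 936 in Ctrl-TAC hearts, and 1910 to 5492 in CIP-OE-Sham, against 926 to 1322 in Ctrl-Sham hearts. The value of 1910 belongs to KI_Sham_3737. The 10 adult cardiomyocyte markers summed to 290973 to 416622 normalized counts per library.

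GC-rich transcripts took a larger share in the 3 Ctrl-TAC libraries than in the other 9. The level of genes with high GC content minus that of genes with low GC content, on the log2 scale around the mean of all libraries, was 0.56 to 0.87 in Ctrl-TAC and -0.53 to 0.020 in the other libraries. All 3 libraries of the group share this, so GC representation and the state of Ctrl-TAC hearts cannot be told apart, and values corrected for GC content are given beside the calls that rest on these libraries. Tests were made with limma on log2(value + 1) in 1 fit of all 12 libraries, p was adjusted over the 13392 genes after Benjamini and Hochberg, and calls needed an adjusted p under 0.05. On this scale the change of low genes is understated. The samples are heart tissue, so fewer cells of a type and less RNA per cell cannot be told apart in any of the results.

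The promoters of some of the genes that the results turn on are shown first, as a description of their letters. Whether these genes share any control was not tested. Cx3cl1, Cxcr4, Ackr2 and Ackr3 are the 4 genes that rose after TAC in control hearts, and Ccl12 and Ccr1 are 2 of the 4 genes that shared their 3 highest libraries. The sequences are the bases before the transcription start in RefSeq, build GRCm38.p6, read 5′ to 3′ on the strand of the gene. Capitals mark matches to a kappaB motif, the binding sequence of NF-kappaB, or to the letters TATAAAA.
Cx3cl1 (chr8:94771930-94772008, plus strand, the 79 bases of the window that lie before the gene in GENCODE M21): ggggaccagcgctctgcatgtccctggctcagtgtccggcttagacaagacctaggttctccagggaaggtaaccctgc
Cxcr4 (chr1:128592300-128592549, minus strand): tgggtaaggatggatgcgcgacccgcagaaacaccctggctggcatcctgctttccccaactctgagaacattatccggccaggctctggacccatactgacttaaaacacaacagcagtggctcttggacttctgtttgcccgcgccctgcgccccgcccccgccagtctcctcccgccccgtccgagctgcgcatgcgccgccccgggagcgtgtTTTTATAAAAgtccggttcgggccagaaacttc
Ackr2 (chr9:121898105-121898354, plus strand): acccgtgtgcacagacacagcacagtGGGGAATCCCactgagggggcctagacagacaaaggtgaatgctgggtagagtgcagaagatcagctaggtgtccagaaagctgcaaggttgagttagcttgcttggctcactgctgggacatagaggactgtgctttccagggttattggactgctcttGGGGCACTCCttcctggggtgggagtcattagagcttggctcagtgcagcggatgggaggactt
Ackr3 (chr1:90203730-90203979, plus strand): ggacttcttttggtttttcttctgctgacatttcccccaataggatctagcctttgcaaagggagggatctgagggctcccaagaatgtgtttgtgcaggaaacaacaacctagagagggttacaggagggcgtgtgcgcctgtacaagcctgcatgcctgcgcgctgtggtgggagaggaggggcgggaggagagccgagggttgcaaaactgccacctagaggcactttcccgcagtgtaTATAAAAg
Ccl12 (chr11:82101595-82101844, plus strand): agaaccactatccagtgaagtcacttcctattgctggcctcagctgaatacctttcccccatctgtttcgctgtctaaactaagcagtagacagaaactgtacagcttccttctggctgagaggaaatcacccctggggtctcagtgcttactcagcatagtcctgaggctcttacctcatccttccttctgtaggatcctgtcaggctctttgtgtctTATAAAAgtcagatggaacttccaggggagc
Ccr1 (chr9:123968693-123968942, minus strand): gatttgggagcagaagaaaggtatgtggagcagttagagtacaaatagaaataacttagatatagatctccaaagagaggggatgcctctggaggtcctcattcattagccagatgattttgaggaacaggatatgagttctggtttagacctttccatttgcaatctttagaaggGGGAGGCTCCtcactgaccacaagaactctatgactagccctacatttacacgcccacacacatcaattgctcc

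Of the 22 expressed genes, 17 matched an entry in the promoter table, with 20 entries in all, and Ccl2, Ccl7, Ccl11, Ccl24 and Cxcl16 did not. In windows of 250 bases searched on both strands, the kappaB motif was in 4 of the 20 entries (Ackr2 and Cxcl1 with 2 matches, Ccl9 and Ccr1 with 1), and in 7.25% of 32817 promoters of the same length. The AP-1 motif TGANTCA was in 2 entries (Ccl9 and Ccl27a) and 6.75% of promoters. The interferon motifs TTCNNNGAA (GAS) and ISRE were in 1 entry each, both of Cxcl14, and in 7.01% and 2.97% of promoters. TATAAAA, which was added after the sequences had been seen, was in 5 entries (Ackr3, Ackr4, Ccl9, Ccl12 and Cxcr4) and 4.98% of promoters. On Cxcr4 the matches to TATAAAA on both strands overlap, and so do the 2 kappaB matches of Cxcl1. A match is a description of the letters and not a site.

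The chemokine genes of these hearts were led by a homeostatic ligand and its scavenger. Per kb of exon, so that genes of different length can be compared, Cxcl12 had 184.8 and Ackr3 183.6 normalized counts as means of the 12 libraries. Cxcl12 retains and attracts Cxcr4-bearing cells, and Ackr3 removes Cxcl12. The next levels per kb were 125 for Cxcl14, a homeostatic chemokine, 73.0 for Ccl6, a macrophage chemokine that binds Ccr1, and 54.3 for Ackr4, the scavenger of Ccl19, Ccl21 and Ccl25. The 15 expressed ligands ended with Ccl25 at 2.58 per kb, the lowest of the 22 genes. Among the signalling receptors, Cxcr4 had 27.0 per kb, Ccr1 5.82, Cx3cr1 5.74 and Ccr2 3.81. Atypical receptors took 702 to 1123 normalized counts per library over the members of that class, while the signalling receptors together took 100.2 to 194. The ligands together took 2032 to 2874 normalized counts per library.

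**Figure D1:**
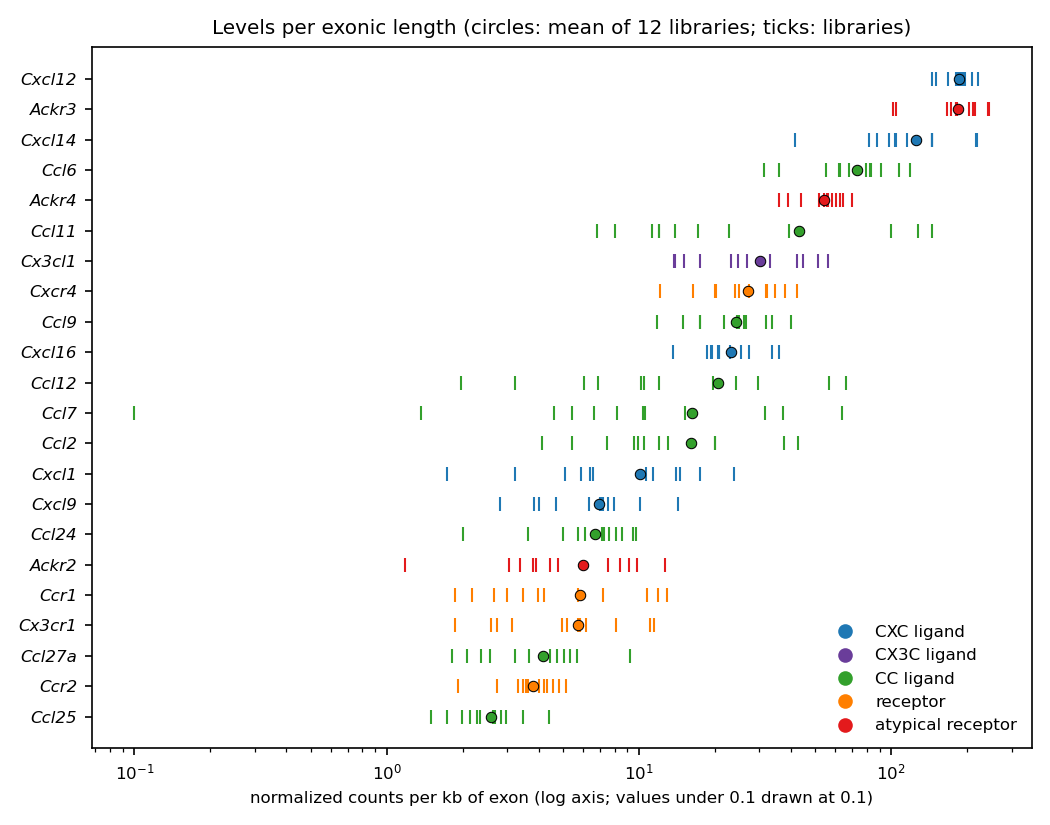
Normalized counts per kb of exon (log axis) of the 22 expressed chemokine and receptor genes, with the mean of 12 libraries as circles, single libraries as ticks and colours for the 5 classes. Cxcl12 and Ackr3 lead at 184.8 and 183.6 per kb, and Ccl7, Ccl11 and Ccl12 are spread the widest over the libraries, with the value of 0 for Ccl7 in KI_Sham_3644 drawn at 0.1.

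By class, 9 of 25 CC ligands, 5 of 13 CXC ligands, the CX3C ligand, 4 of 16 signalling receptors and 3 of 4 atypical receptors were expressed. A further 26 genes had 1 to 96 reads over all libraries, and 11 had none. Several expressed ligands had few reads of the receptor they are best known for. Ccl11 and Ccl24, the eotaxins, act on Ccr3, which had 3 reads in all. Cxcl1 attracts neutrophils through Cxcr2, which had 36 reads. Cxcl9, an interferon-induced ligand, acts on Cxcr3, which had 10 reads, and Cxcl16 acts on Cxcr6, which had 43. Ccl25 acts on Ccr9, with 22 reads, and Ccl27a on Ccr10, with 40. Under the minimum were also Ccl3, Ccl4, Ccl5, Ccl8, Ccl17, Ccl19, Ccl22, Ccl26, Ccl28, Cxcl2, Cxcl5, Cxcl10, Cxcl11, Cxcl13, Ccr4, Ccr6, Ccr7, Cxcr1, Cxcr5 and Ackr1. Those with 0 reads were Ccl1, Ccl20, Ccl21a, Ccl21b, Ccl21c, Ccl27, Ccl27b, Cxcl3, Cxcl15, Cxcl17 and Ccr8. A count of 0 over all 88662337 reads allows up to 3 reads, by counting error only. The Ccl21 and Ccl27 genes have near-identical copies between which reads may be split, so their levels, that of Ccl27a included, are uncertain. Ccl19 had a second row with 0 reads.

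TAC in control hearts changed 6 of the 22 genes. In Ctrl-TAC against Ctrl-Sham hearts, 4 genes rose (Cx3cl1, Ackr2, Cxcr4 and Ackr3) and 2 fell (Ccl11 and Ackr4). Over all 13392 genes tested, 20.7% rose and 20.2% fell, 40.9% in all, and 6 of 22 is not a larger share than that of all genes. Below an unadjusted p of 0.05 there were 7 of the 22, beside 49.5% of all genes. The median log2 fold change of the 22 genes was -0.11, beside 0.0022 over all genes. The 2 groups did not overlap in 6 of the 22 genes, 4 higher and 2 lower, beside 25.2% higher and 25.5% lower of all genes, 50.8% in all.

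Cx3cl1 encodes fractalkine, a ligand that stays anchored in the membrane of endothelial and other cells until it is shed, and it rose the most of the 4. It lies on chromosome 8 of GRCm38 from 94772009 to 94782427. Cx3cl1 had 201, 219.6 and 175 normalized counts in Ctrl-TAC hearts, against 54.6, 59.0 and 54.1 in Ctrl-Sham hearts. The lowest Ctrl-TAC library was thus far above the highest Ctrl-Sham library. The log2 fold change was 1.81 (SE 0.23, adjusted p = 1.29e-05 from limma) and with correction for GC content 1.21 (adjusted p = 0.00272). The 9 endothelial markers summed to 8613 to 11642 normalized counts in Ctrl-TAC and 7423 to 7679 in Ctrl-Sham hearts. Of the 9, 5 were called higher, 2 of which (Cdh5 and Kdr) were also called with GC correction, and their part in the rise of Cx3cl1 was not tested. Cx3cr1, its receptor on monocytes and macrophages, ranged from 8.43 to 51.9 over the 12 libraries, and its log2 fold change of 0.74 (95% interval -0.48 to 1.96, limma adjusted p = 0.315) did not pass.

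Both receptors of Cxcl12 rose. Ackr3 had 683, 810.4 and 602 normalized counts in Ctrl-TAC hearts, against 341, 350.1 and 579 in Ctrl-Sham hearts, where Ctrl_Sham_4033 was close to the lowest Ctrl-TAC library. Its log2 fold change was 0.76 (SE 0.17, limma adjusted p = 0.00162). Cxcr4 had 62.8, 76.2 and 43.4 in Ctrl-TAC hearts, against 21.8, 29.5 and 36.0 in Ctrl-Sham hearts, a log2 fold change of 1.03 (SE 0.27, limma adjusted p = 0.00453). Neither gene overlapped between the groups. With GC correction both kept their calls, at 0.82 for Ackr3 and 1.26 for Cxcr4 (limma adjusted p = 0.00226 each). Cxcl12 itself had 1798, 1189 and 1534 normalized counts in Ctrl-TAC hearts, against 1555, 1503 and 1596 in Ctrl-Sham hearts, with a log2 fold change of -0.062 (95% interval -0.36 to 0.24). Cxcl12, Cxcr4 and Ackr3 lie on chromosomes 6, 1 and 1.

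Ackr2, the scavenger of inflammatory CC chemokines, was a low gene that rose. It had 39.7, 30.8 and 28.6 normalized counts in Ctrl-TAC hearts, against 13.9, 12.2 and 9.54 in Ctrl-Sham hearts. All 3 Ctrl-TAC libraries were above all Ctrl-Sham libraries. The log2 fold change was 1.4 (SE 0.38, limma adjusted p = 0.00680), and 1.16 (adjusted p = 0.0350) with GC correction.

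Ccl11, eotaxin, an attractant of eosinophils that fibroblasts are known to make, fell the most of all 22 genes. It lies on chromosome 11 from 82057823 to 82062955, near Ccl2, Ccl7 and Ccl12. Ccl11 had 7.39, 13.0 and 8.68 normalized counts in Ctrl-TAC hearts, against 138, 157 and 42.4 in Ctrl-Sham hearts. All Ctrl-TAC values were under all Ctrl-Sham values, which differed several-fold among themselves, with Ctrl_Sham_4033 the lowest. The log2 fold change was -3.24 (SE 0.69, limma adjusted p = 0.00343), and -2.75 (adjusted p = 0.0209) with GC correction. The summed level of 9 fibroblast markers was 15438 to 19900.5 in Ctrl-TAC and 8397 to 9394 in Ctrl-Sham hearts, the opposite direction to Ccl11. Of the 9, 5 were called higher and 0 lower, and 3 had negative log2 fold changes. These counts are without GC correction, and Dcn and Gsn were the largest of the 9 markers in every library. Pdgfra had 257, 281 and 284 in Ctrl-TAC hearts, against 382, 366 and 252 in Ctrl-Sham hearts. The part of these markers in the result was not tested. Ccl24, the other eotaxin, had 2.60 to 12.7 normalized counts over all libraries and was called in no comparison.

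Ackr4, the scavenger of the homeostatic CC chemokines, also fell, and its call was not kept with GC correction. It had 194, 277 and 299 normalized counts in Ctrl-TAC hearts, against 377, 338 and 324 in Ctrl-Sham hearts, with no overlap between groups. Its log2 fold change was -0.45 (SE 0.16, limma adjusted p = 0.0281), and -0.19 (adjusted p = 0.390) with GC correction. The call of Ackr4 was also lost without Ctrl_Sham_4010 (-0.39, adjusted p = 0.109), Ctrl_Sham_4011 (-0.47, adjusted p = 0.0529) or Ctrl_TAC_3586 (-0.26, adjusted p = 0.175), and in limma without trend and robust estimation (adjusted p = 0.0695). Of the exonic bases of Ackr4, 8.90% overlap Acad11 on the other strand, and whether counting used strand is not stated in the sources.

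Among the other abundant ligands none passed in this comparison. Cxcl14 had 399.9, 178 and 396 normalized counts in Ctrl-TAC hearts, against 210.5, 149.6 and 160.1 in Ctrl-Sham hearts. Only Ctrl_TAC_3800 overlapped the Ctrl-Sham range, and the log2 fold change was 0.82 (SE 0.47, limma adjusted p = 0.194). It passed with edgeR (0.90, adjusted p = 0.0369) and without KI_Sham_3644 (adjusted p = 0.0459), and was at 0.40 (limma adjusted p = 0.580) with GC correction. Ccl6 had 149, 164 and 112 in Ctrl-TAC hearts, against 212, 192 and 56.2 in Ctrl-Sham hearts, with a log2 fold change of 0.080 (SE 0.44), and of 0.38 with GC correction. The Ctrl-Sham animals enclosed the whole Ctrl-TAC range, and Ctrl_Sham_4033 was the low one. Cxcl16 passed only without Ctrl_TAC_4231 (0.61, limma adjusted p = 0.0438) and Ccl12 only without Ctrl_TAC_3800 (-2.02, 0.0403). Ccl8, a CC ligand under the minimum for expressed genes, had 7.81 to 25.9 normalized counts in Ctrl-TAC hearts, against 0 to 6.11 in Ctrl-Sham hearts. With no minimum it was called at 2.08 (limma adjusted p = 0.0166). The same fit also called Ccl19 (-1.20, limma adjusted p = 0.0431). Ccl19 had 2.98, 2.04 and 0 normalized counts in Ctrl-Sham hearts and 0 in each Ctrl-TAC heart. Values corrected for GC content were made for expressed genes only, so neither gene has one.

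**Figure D2:**
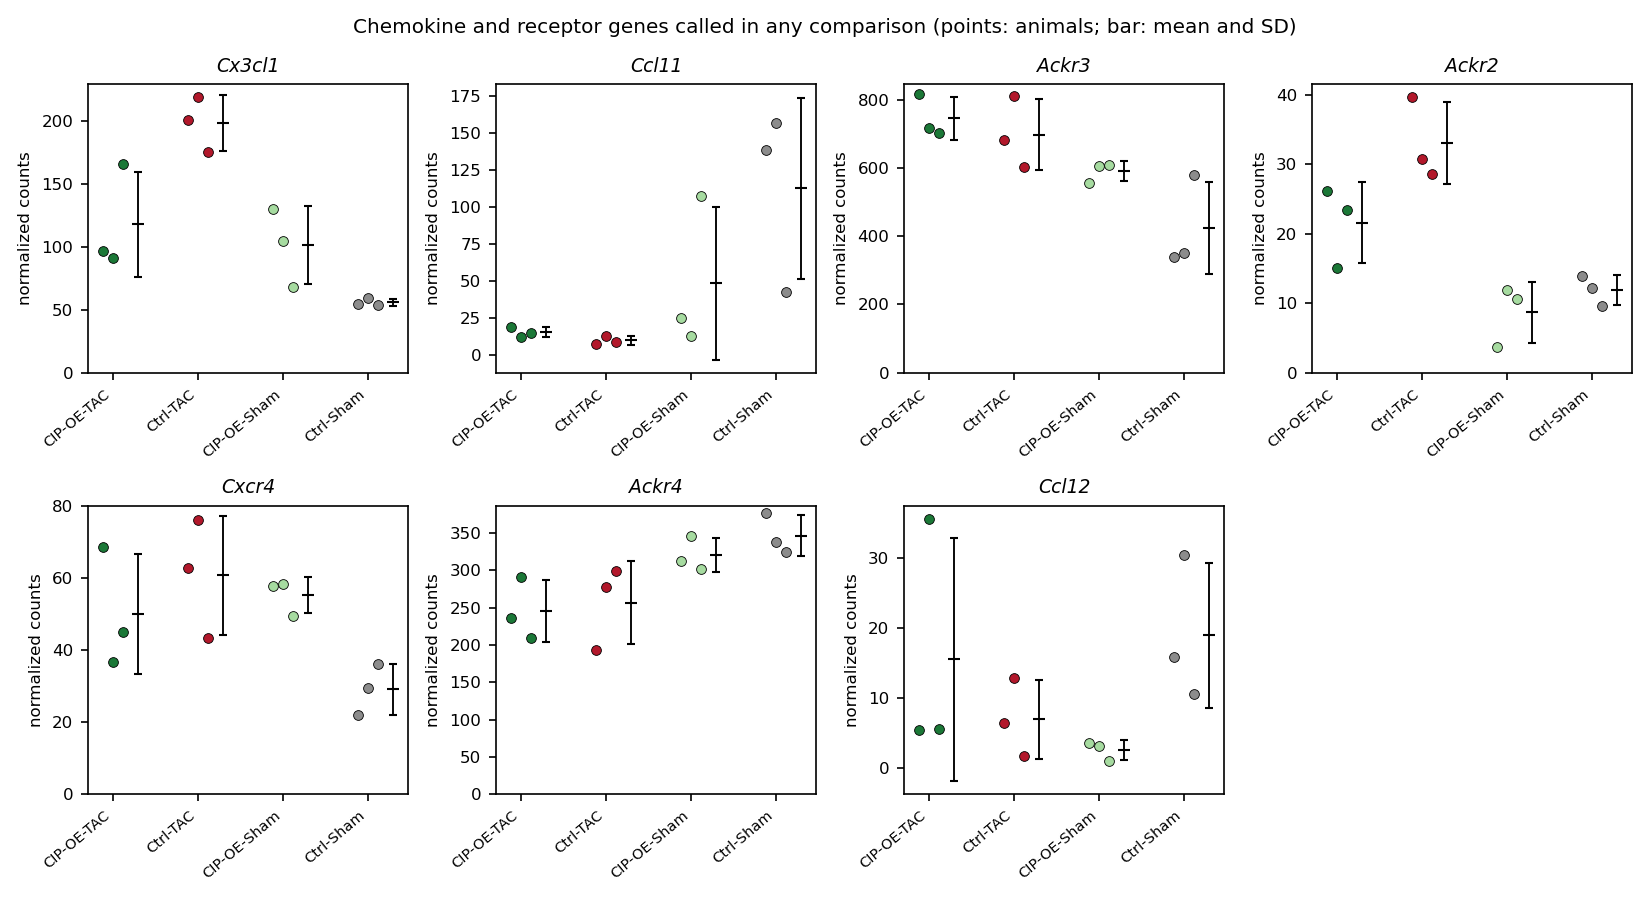
Normalized counts of the 7 genes called in any comparison, with 1 point per animal and the mean and SD of 3 animals beside them, for CIP-OE-TAC, Ctrl-TAC, CIP-OE-Sham and Ctrl-Sham hearts from left to right. Cx3cl1 is at 175 to 219.6 in Ctrl-TAC hearts and at 54.1 to 59.0 in Ctrl-Sham hearts, and Ccl11 is at most at 18.6 in the TAC hearts.

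With CIP overexpression under TAC, 1 of the 22 genes was called lower (Cx3cl1) and 0 higher. Over all genes, 9.27% were lower and 9.11% higher by the same rule (18.4% in all). At an unadjusted p under 0.05 there was 1 of the 22 genes by limma, beside 33.2% of all genes, and 1 each by edgeR and DESeq2. The median log2 fold change of the 22 genes was -0.11, beside 0.0067 over all genes.

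Cx3cl1 had 97.2, 90.9 and 166 normalized counts in CIP-OE-TAC hearts, against 201, 219.6 and 175 in Ctrl-TAC hearts. The groups did not overlap, although KI_TAC_3587 was close to the lowest Ctrl-TAC library. The log2 fold change was -0.79 (SE 0.23, limma adjusted p = 0.0232). With correction for GC content it was -0.40 (adjusted p = 0.442) and was no longer called. The call was also lost without Ctrl_TAC_3586 (-0.78, adjusted p = 0.0702), Ctrl_TAC_3800 (-0.72, 0.0719), KI_TAC_3577 (-0.68, 0.0882) or KI_TAC_3579 (-0.63, 0.114). Over 9 endothelial markers the summed level was 7868 to 9178 in CIP-OE-TAC hearts and 8613 to 11642 in Ctrl-TAC hearts. Of the 9, Egfl7, Cdh5 and Tie1 were called lower, at -0.76, -0.55 and -0.54 on the log2 scale, and 0 of these 3 with GC correction. The part of these cells in the result for Cx3cl1 was not tested.

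Ackr2 was the only other gene whose groups did not overlap in this comparison, of 2 lower genes and 0 higher, beside 17.7% and 18.4% of all genes (36.1% in all). It had 26.2, 15.0 and 23.5 normalized counts in CIP-OE-TAC hearts, against 39.7, 30.8 and 28.6 in Ctrl-TAC hearts, and the log2 fold change of -0.62 (95% interval -1.42 to 0.19, limma adjusted p = 0.273) did not pass, nor did that of -0.43 with GC correction (0.613). For the most abundant genes the intervals were narrow. They were -0.40 to 0.20 for Cxcl12, -0.25 to 0.46 for Ackr3 and -0.38 to 0.28 for Ackr4. Cxcl12 had 1578, 1227 and 1370.2 normalized counts in CIP-OE-TAC hearts, Ackr3 had 819, 717 and 704, and Ackr4 had 236, 292 and 209.6, all across or near the Ctrl-TAC values given above. For Cxcl14 (264, 188 and 266 in CIP-OE-TAC hearts) and Ccl6 (122, 147 and 143) the intervals were wider, at -1.43 to 0.70 and -1.01 to 0.96. Cxcr4 had 68.8, 36.6 and 45.1 in CIP-OE-TAC hearts and Ccl11 had 18.6, 12.2 and 15.0, and neither passed.

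TAC in CIP-OE hearts was followed by a call in 0 of the 22 genes, where 0.754% of all genes were called higher and 0.508% lower (1.26% in all). At an unadjusted p under 0.05 there were 4 of the 22 genes by limma, beside 12.6% of all genes, and 5 each by edgeR and DESeq2, and 0 passed the adjustment with any of the 3 tools. The groups did not overlap in 6 genes. Ccl6, Ccl9, Ccl12, Ackr2 and Ackr3 were higher in CIP-OE-TAC hearts and Ackr4 was lower, beside 9.62% of all genes higher and 9.14% lower (18.8% in all). Ackr2 had 26.2, 15.0 and 23.5 normalized counts in CIP-OE-TAC hearts, against 3.69, 11.9 and 10.5 in CIP-OE-Sham hearts, with a log2 fold change of 1.31 (SE 0.38, limma adjusted p = 0.0990). The change in control hearts was 1.4, and the difference of the 2 changes was -0.092 (95% interval -1.23 to 1.04). Ccl9, a macrophage chemokine that binds Ccr1, had 79.7, 80.6 and 76.1 in CIP-OE-TAC hearts, against 53.0, 45.4 and 35.8 in CIP-OE-Sham hearts. Its log2 fold change was 0.82 (SE 0.25, limma adjusted p = 0.123), and it passed without Ctrl_Sham_4033 (adjusted p = 0.0447) and in a fit of the compared groups only (0.0446). The summed level of 15 macrophage markers was 2342 to 2835 in CIP-OE-TAC hearts and 1641 to 1853 in CIP-OE-Sham hearts. Of the 15, 0 were called, 14 had positive fold changes and 1 a negative one. The part of these markers in the values of Ccl6 and Ccl9 was not tested. Cx3cl1 overlapped, at 97.2, 90.9 and 166 in CIP-OE-TAC, against 131, 105 and 68.5 in CIP-OE-Sham hearts, with a log2 fold change of 0.21 (SE 0.23).

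Ccl11 had 18.6, 12.2 and 15.0 normalized counts in CIP-OE-TAC hearts, against 24.6, 13.0 and 108 in CIP-OE-Sham hearts. In CIP-OE-Sham, KI_Sham_3644 lay within the range of the TAC hearts, KI_Sham_3643 just above it and KI_Sham_3737 far above it. The log2 fold change was -1.08 (SE 0.69, limma adjusted p = 0.598). Ackr4 had 236, 292 and 209.6 in CIP-OE-TAC hearts, against 313, 346 and 303 in CIP-OE-Sham hearts, at -0.39 (SE 0.16, limma adjusted p = 0.274). The intervals of the 3 most abundant ligands, whose CIP-OE-TAC values are given above, held 0. Cxcl12 had 1475, 1591 and 1711 normalized counts in CIP-OE-Sham hearts, with a log2 fold change of -0.20 (95% interval -0.50 to 0.098) after TAC. Cxcl14 had 191, 75.7 and 265 in CIP-OE-Sham hearts, at 0.59 (95% interval -0.47 to 1.66). Ccl6 had 98.5, 111 and 64.3 in CIP-OE-Sham hearts, all under the CIP-OE-TAC values, at 0.62 (95% interval -0.37 to 1.60).

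Without TAC, CIP overexpression was followed by a call in 0 of the 22 genes by limma and edgeR and in 1 by DESeq2 (Ccl9, -1.05, adjusted p = 0.0440). Of all genes, limma called 0.0149% higher and 0.00747% lower (0.0224% in all). Below an unadjusted p of 0.05 there were 8 of the 22 genes by limma, beside 11.2% of all genes, 9 by edgeR and 7 by DESeq2. These 8 were Cx3cl1, Cxcr4 and Ackr3 with positive log2 fold changes, at 0.80, 0.93 and 0.52, and Ccl7, Ccl9, Ccl11, Ccl12 and Ccr1 with negative ones, at -2.61, -0.97, -1.54, -2.41 and -1.39. The lowest adjusted p of the 22 was 0.183 by limma. CIP-OE-Sham did not overlap Ctrl-Sham in 2 higher genes (Cx3cl1 and Cxcr4) and 2 lower genes (Ccl9 and Ccl12), beside 8.82% and 8.95% of all genes (17.8% in all). Cxcr4 had 57.9, 58.4 and 49.6 normalized counts in CIP-OE-Sham hearts, against 21.8, 29.5 and 36.0 in Ctrl-Sham hearts. Ackr3 had 557, 607 and 608 in CIP-OE-Sham hearts, against 341, 350.1 and 579 in Ctrl-Sham hearts. The 3 CIP-OE-Sham libraries lay close together in both genes, and Ctrl_Sham_4033 lay nearest to them for Cxcr4 and among them for Ackr3. Without Ctrl_Sham_4033, 3 genes were called, Ccl6 (-1.17, adjusted p = 0.0388), Ccl9 (-1.32, 0.0256) and Ackr3 (0.77, 0.0474). The 15 macrophage markers summed to 1641 to 1853 in CIP-OE-Sham and 1840 to 2890 in Ctrl-Sham hearts. Of the 15, 0 were called and all 15 had negative fold changes, and their part in the lower values was not tested.

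The change after TAC was compared between the genotypes by the interaction, which is the log2 fold change of CIP-OE-TAC against CIP-OE-Sham minus that of Ctrl-TAC against Ctrl-Sham. It was called in 3 of the 22 genes, 1 positive (Ccl12) and 2 negative (Cx3cl1 and Cxcr4), beside 5.43% and 6.18% of all genes (11.6% in all). Below an unadjusted p of 0.05 there were 5 of the 22, beside 29.3% of all genes. Cx3cl1 differed by -1.59 (SE 0.33, limma adjusted p = 0.00646), from changes of 0.21 in CIP-OE and 1.81 in control hearts. Cxcr4 differed by -1.21 (SE 0.38, limma adjusted p = 0.0419), from -0.18 in CIP-OE and 1.03 in control hearts. In both genes the CIP-OE-Sham values did not overlap those of Ctrl-Sham hearts, at log2 fold changes of 0.80 for Cx3cl1 and 0.93 for Cxcr4 that did not pass.

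Of these 3, Cx3cl1 kept its interaction call without each library in turn (adjusted p 0.00284 to 0.0224). Ccl12 lost its call in 9 of the 12 fits without 1 library, and Cxcr4 also in 9. Only without Ctrl_TAC_3800, KI_TAC_3577 or KI_TAC_3587 did Ccl12 keep it, and the adjusted p of the lost calls was 0.0517 to 0.117, the highest without KI_TAC_3579. Cxcr4 kept it only without Ctrl_Sham_4033, Ctrl_TAC_4231 or KI_TAC_3577, with 0.0585 to 0.117 otherwise, again highest without KI_TAC_3579. Without Ctrl_Sham_4033 the interaction was also called for Ccl6 (1.15, limma adjusted p = 0.0272), Ccl9 (1.33, 0.0155) and Ackr3 (-0.67, 0.0473), and without KI_Sham_3737 for Ccl11 (3.0, 0.0115). With GC correction 0 of the 3 were called, at -1.05 for Cx3cl1 (adjusted p = 0.211), 2.77 for Ccl12 (0.221) and -1.45 for Cxcr4 (0.0809).

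**Figure D3:**
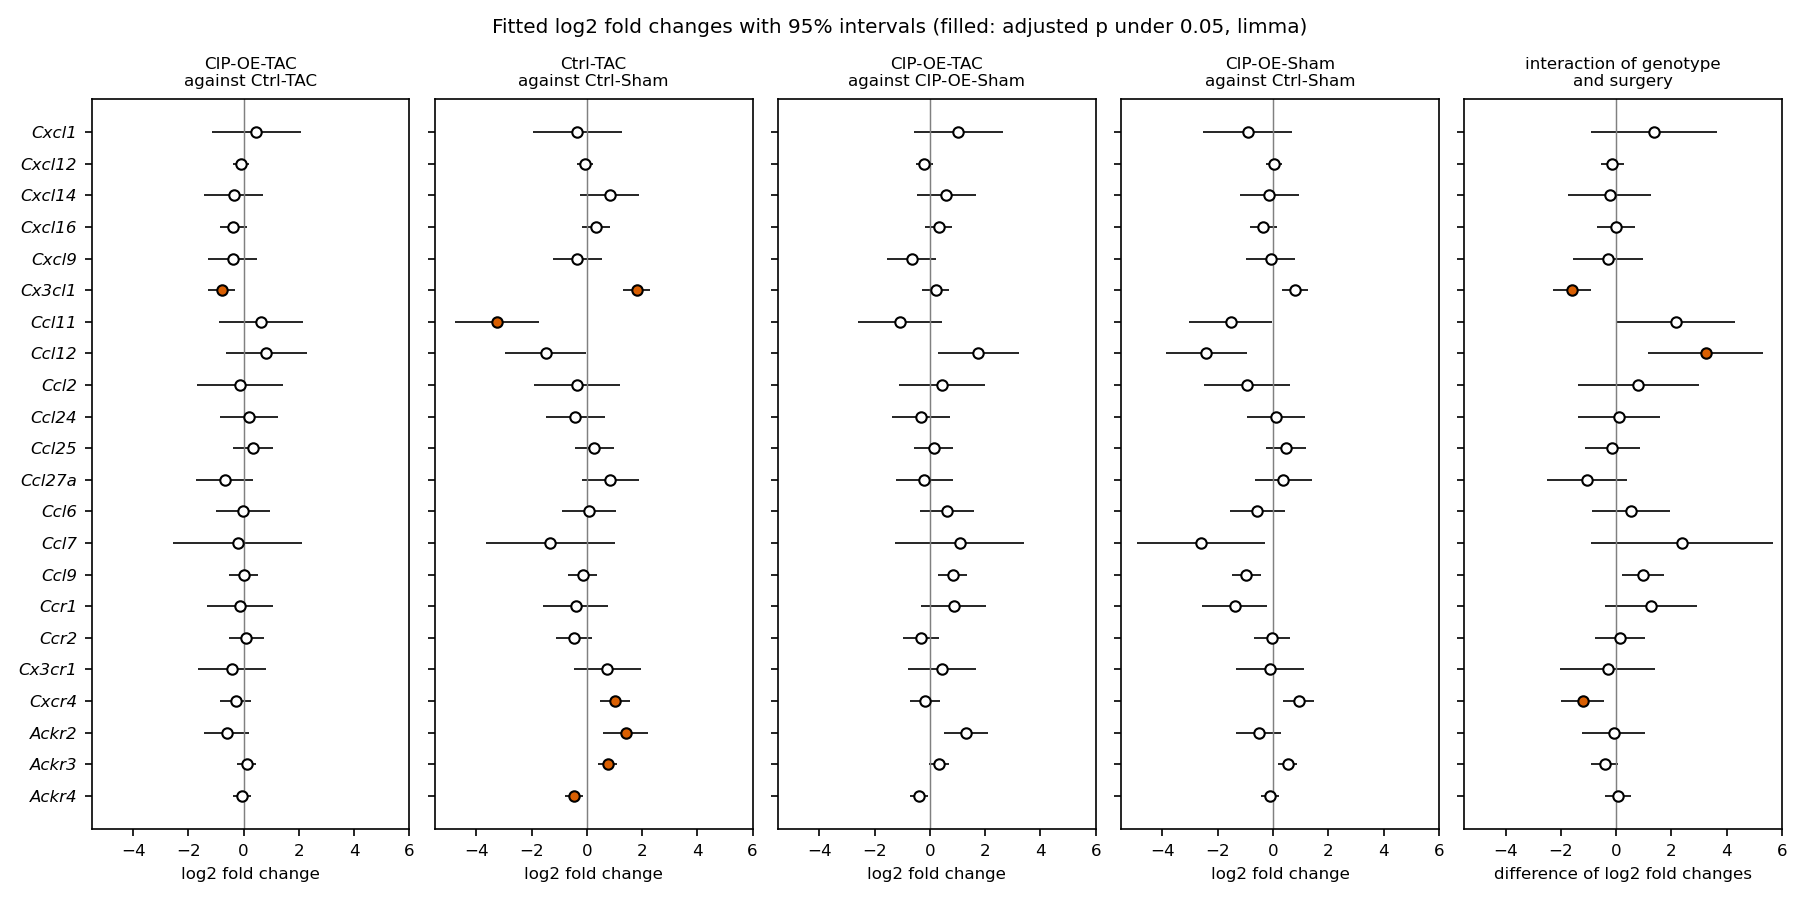
Fitted log2 fold changes of the 22 expressed genes with 95% intervals in the 5 comparisons, with calls at an adjusted p under 0.05 filled. The calls are 1 in CIP-OE-TAC against Ctrl-TAC, 6 in Ctrl-TAC against Ctrl-Sham, 0 and 0 in the next 2 panels and 3 in the interaction.

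The monocyte chemokines differed several-fold between libraries of the same group. Ccl2, Ccl7 and Ccl12 act on Ccr2 and recruit monocytes, and with Ccl11 they lie together on chromosome 11 of GRCm38 between 82035571 and 82103400. Ccr1 is a receptor of monocytes and neutrophils. Ccl2 had 10.9, 48.8 and 4.70 normalized counts in CIP-OE-TAC hearts, against 14.8, 22.7 and 11.3 in Ctrl-TAC hearts. It had 6.16, 11.9 and 13.7 in CIP-OE-Sham hearts, against 22.8, 42.7 and 8.48 in Ctrl-Sham hearts. The 3 highest libraries were KI_TAC_3579, Ctrl_Sham_4011 and Ctrl_Sham_4010.

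The same 3 libraries were the highest for Ccl7, Ccl12 and Ccr1, a pattern noticed after the values had been seen and given as a description. Ccl7 had 1.09, 25.3 and 6.58 in CIP-OE-TAC hearts and 8.31, 12.2 and 4.34 in Ctrl-TAC hearts. It had 3.69, 0 and 8.43 in CIP-OE-Sham and 29.8, 50.9 and 5.30 in Ctrl-Sham hearts. Its highest and lowest libraries thus fell in 2 sham groups. Ccl12 had 5.46, 35.6 and 5.64 in CIP-OE-TAC hearts and 6.46, 13.0 and 1.74 in Ctrl-TAC hearts. It had 3.69, 3.24 and 1.05 in CIP-OE-Sham and 15.9, 30.5 and 10.6 in Ctrl-Sham hearts, so that the 2 sham groups did not overlap. Its interaction of 3.23 (SE 0.99, limma adjusted p = 0.0417) came from changes of 1.75 in CIP-OE and -1.48 in control hearts and was 2.41 without KI_TAC_3579. Ccr1 had 9.83, 36.6 and 7.52 in CIP-OE-TAC hearts and 20.3, 16.2 and 11.3 in Ctrl-TAC hearts. It had 6.16, 11.9 and 5.27 in CIP-OE-Sham and 33.8, 30.5 and 8.48 in Ctrl-Sham hearts, and was called in no comparison.

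The summed level of neutrophil markers was also highest in these 3 libraries, though not every marker followed them. The 9 neutrophil markers summed to 189 normalized counts in KI_TAC_3579, beside 21.8 and 29.1 in the other 2 CIP-OE-TAC libraries, and to 13.0 to 38.1 in Ctrl-TAC. They summed to 6.33 to 27.0 in CIP-OE-Sham, and to 75.5 and 73.3 in Ctrl_Sham_4010 and Ctrl_Sham_4011 but 10.6 in Ctrl_Sham_4033. Between 2 and 6 of the 9 were above 0 in each library. S100a9, Csf3r and S100a8 had 83.4, 50.6 and 32.8 in KI_TAC_3579. In Ctrl_Sham_4010 and Ctrl_Sham_4011, S100a9 had 32.8 and 29.5, and S100a8 had 21.8 and 21.4. Csf3r had 10.9 and 14.2 in these 2 libraries, under its 20.3 in Ctrl_TAC_3800. Ly6g was at 0 in 10 of the 12 libraries, and Mpo, Elane and Camp were at 0 in all. The part of these cells in the values of Ccl2, Ccl7, Ccl12 and Ccr1 was not tested.

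**Figure D4:**
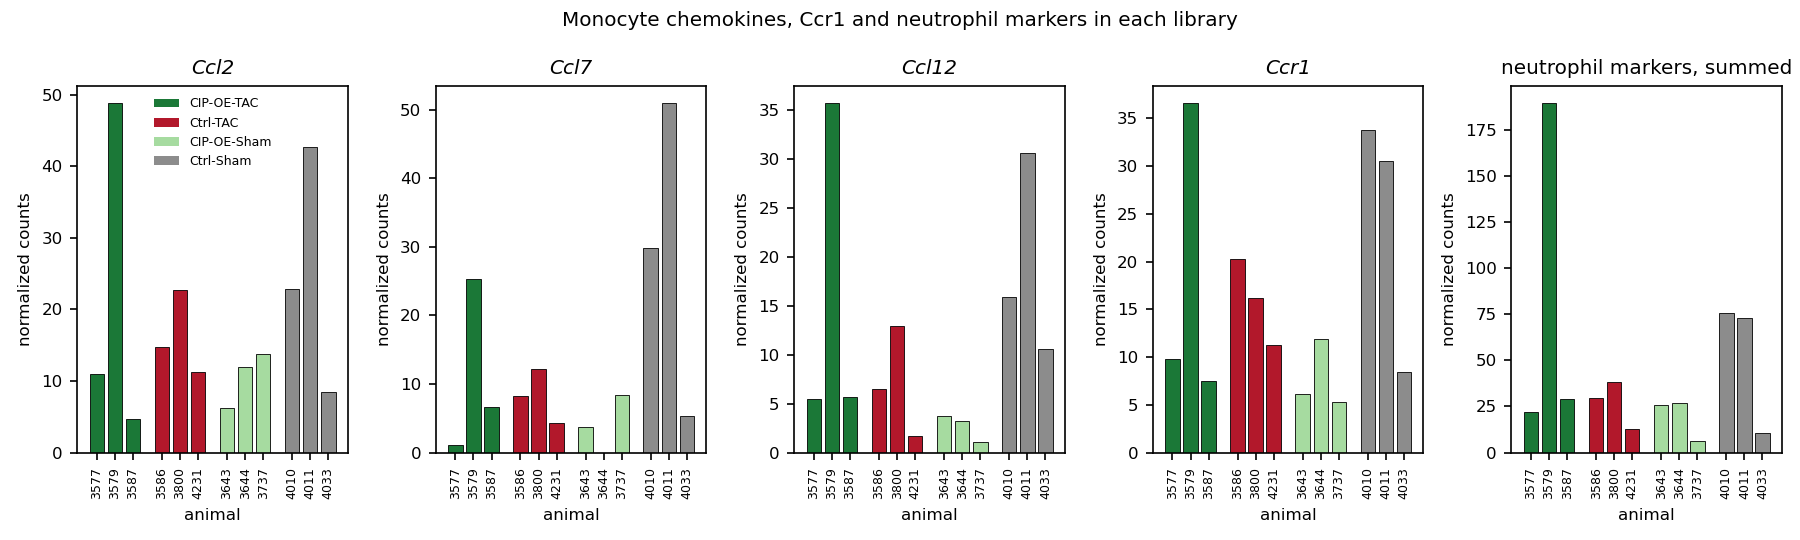
Normalized counts of Ccl2, Ccl7, Ccl12 and Ccr1 and the summed counts of 9 neutrophil markers, 1 bar per animal, in CIP-OE-TAC, Ctrl-TAC, CIP-OE-Sham and Ctrl-Sham hearts from left to right. KI_TAC_3579 and Ctrl_Sham_4010 and Ctrl_Sham_4011 hold the 3 highest bars of each panel, at 189, 75.5 and 73.3 for the neutrophil markers.

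The remaining expressed genes were called in no comparison. Ccr2, the receptor of the monocyte chemokines, ranged from 13.0 to 34.8 normalized counts over the 12 libraries. Cxcl1 ranged from 3.24 to 44.6, Cxcl9 from 8.46 to 43.1 and Cxcl16 from 41.1 to 108. Ccl25 ranged from 11.2 to 32.8 and Ccl27a from 4.32 to 21.9. Of the exonic bases of Cxcl16, 18.3% overlap Zmynd15 on the other strand.

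Genes that act with the chemokines were counted from 4 lists. The counts are without GC correction. With it, 20.9% of all genes were called in Ctrl-TAC against Ctrl-Sham hearts, 3.42% between the TAC groups and 0.875% in the interaction. Of 25 tested genes of G protein subunits, receptor kinases, arrestins and downstream regulators, 9 rose and 2 fell in Ctrl-TAC against Ctrl-Sham hearts, beside 20.7% and 20.2% of all genes, with a median log2 fold change of 0.24. With CIP overexpression under TAC 0 rose and 3 fell, beside 9.11% and 9.27% of all genes, and in the interaction 1 was positive and 2 negative, beside 5.43% and 6.18%. Gnb2, a G protein beta subunit, had 243 to 289 normalized counts in CIP-OE-TAC hearts and 428 to 550.4 in Ctrl-TAC hearts, and 277 to 327 in CIP-OE-Sham and 221 to 289 in Ctrl-Sham hearts. Its log2 fold change was -0.84 between the TAC groups (limma adjusted p = 8.96e-04) and -0.25 with GC correction (0.290). Gnai2, the inhibitory alpha subunit, was at -0.51 (limma adjusted p = 0.0154) and at -0.12 with GC correction (0.659). Rgs2, which shortens G protein signals, was at -1.36 in Ctrl-TAC against Ctrl-Sham hearts (limma adjusted p = 1.28e-04) and at -0.94 with GC correction (0.00687).

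Of 17 tested cytokines, receptors and NF-kappaB genes, which induce or restrain chemokines, 5 rose and 0 fell in Ctrl-TAC against Ctrl-Sham hearts. Over all genes, 40.9% were called in that comparison. Under TAC with CIP overexpression 0 rose and 2 fell, where 18.4% of all genes were called. Rela, the p65 subunit of NF-kappaB, was at 1.0 and -0.44 in these 2 comparisons (limma adjusted p = 1.15e-05 and 0.0251). With GC correction it was at 0.24 (0.152) and 0.12 (0.654), so the second value changed sign. Tnfrsf1a, a receptor of tumour necrosis factor, was at 1.01 and -0.53 (limma adjusted p = 2.76e-05 and 0.0161), and at 0.54 (0.00681) and -0.19 (0.50) with GC correction.

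Of 19 tested genes that present or cleave chemokines or hold rolling leukocytes, 4 rose and 3 fell in Ctrl-TAC against Ctrl-Sham hearts, beside the 40.9% of all genes. Between CIP-OE-TAC and Ctrl-TAC 0 rose and 1 fell (Sdc3, -0.62, limma adjusted p = 0.00452, and -0.11 with GC correction, 0.713), beside 18.4%. Vcam1, the endothelial adhesion molecule that binds leukocyte integrins, had 122, 161 and 147 normalized counts in CIP-OE-TAC hearts and 113, 122 and 65.1 in Ctrl-TAC hearts. It had 105, 81.1 and 109.7 in CIP-OE-Sham and 253, 253 and 200.4 in Ctrl-Sham hearts. Ctrl-Sham hearts were thus above every other heart. Vcam1 was 1 of the 3 genes of the whole transcriptome called in CIP-OE-Sham against Ctrl-Sham hearts, at -1.25 (SE 0.21, limma adjusted p = 0.0296), and was not called after GC correction (-1.13, 0.122). In Ctrl-TAC against Ctrl-Sham it was at -1.27 (limma adjusted p = 9.86e-05), and at -0.71 (0.0276) with GC correction. Mmp14, a membrane metalloproteinase, was at 1.56 in that comparison (limma adjusted p = 2.31e-04), and at 1.24 (0.00389) with GC correction. Of the other chemokine family genes, Pf4 and Ccrl2 were tested, and Ccrl2, a receptor-like protein that presents chemerin, fell in Ctrl-TAC against Ctrl-Sham hearts (-1.09, limma adjusted p = 4.57e-04, and -1.01 with GC correction, 0.00218).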

How the data were processed

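RNA of 12 mouse heart samples was sequenced, 3 in each of 4 groups. The authors deposited 1 table of normalized counts, a signal in which the values of each library are whole multiples of a factor. STAR, featureCounts and DESeq2 with mm10 are named in the methods of the paper. The notes that the submitters gave on processing instead name HISAT2 (2.0.4), StringTie (2.1.4), DESeq2 (1.4.5) and GRCm38, and which of these made the table is not known here. The annotation release and strand setting are not stated in either. Of 54515 rows, 633 exact duplicates were removed. Reads were recovered by dividing by the smallest value of a library (100% whole within 0.001, factors 0.810 to 1.23). Libraries of a group differed by 3.77 to 23.1 chi-square units per degree of freedom, so each counted as 1 replicate. The labels give each library a number but do not say that these are separate mice, so p-values measure the spread between these samples.

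Tests used limma 3.58.1 in R 4.3.3 (trend, robust) on log2(value + 1), two-sided. Alternatives were pseudocounts 0.1 and 5, no minimum or at least 50, TMM, totals that leave out mitochondrial genes and the top 20 genes, limma without trend and robust, GC correction, fits of the compared groups, edgeR 4.0.16, DESeq2 1.42.0, a fold over 1.5 and leaving out each library. The test was checked on simulated data. Coordinates, exonic lengths and GC content are from GENCODE M21. Values per library were given for genes called in any comparison and the 6 most abundant. The monocyte chemokines, Ccr1, Ccl8, Ccl9 and Ccl19 were named outside this rule after their values were seen. The members and lists were chosen with earlier results of these data known. Of the genes that the rule takes in, 1 is not reported here.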

Additional observations from a re-analysis of the deposited data

Results flagged for a closer look

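The change after TAC differed between CIP-OE and control hearts in 3 chemokine and receptor genes by the interaction in limma. Cx3cl1 had a difference of -1.59, with changes of 0.21 in CIP-OE and 1.81 in control hearts. Ccl12 had a difference of 3.23, with changes of 1.75 and -1.48. Cxcr4 had a difference of -1.21, with changes of -0.18 and 1.03. All are on the log2 scale. The calls of Ccl12 and Cxcr4 did not hold without several of the single libraries, and 0 of the 3 held with GC correction.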

How the results depend on the processing

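In Ctrl-TAC against Ctrl-Sham hearts, Cx3cl1, Ccl11, Ackr2, Ackr3 and Cxcr4 kept their calls under all alternatives in which they were tested, and the count of called genes was 5 to 8 (5 to 7 without 1 library). For CIP-OE-TAC against Ctrl-TAC, the count of 1 became 2 with no minimum (Cxcl13, -2.21, was added), 0 without trend and robust estimation and 0 with GC correction, and 0 to 1 without 1 library. In CIP-OE-TAC against CIP-OE-Sham it became 1 in the fit of the compared groups only, and 0 to 1 without 1 library. In CIP-OE-Sham against Ctrl-Sham it became 1 with DESeq2, and 0 to 3 without 1 library, the 3 without Ctrl_Sham_4033. The interaction count of 3 became 1 without trend and robust estimation, 0 with GC correction, 2 with edgeR (Cxcr4 lost, adjusted p = 0.0510), 2 with DESeq2 and 1 to 5 without 1 library, the 5 without Ctrl_Sham_4033. The cause was not tested. DESeq2 gave no adjusted p for Ccl12 in the interaction. Over the alternative fits of all 12 libraries that gave an adjusted p, the interaction call was lost in 5 for Cxcr4, 3 for Ccl12 and 1 for Cx3cl1. No called value of a chemokine or receptor gene changed direction. Among their values that were not called, many had the opposite sign with GC correction. In the interaction these included Ackr2 (-0.092, then 0.14), Ackr4 (0.059, then -0.19) and Ccr2 (0.14, then -0.43). In Ctrl-TAC against Ctrl-Sham hearts they included Ccl9 (-0.15, then 0.34), Ccr1 (-0.40, then 0.22) and Ccr2 (-0.46, then 0.14). Between the TAC groups they included Ccl25 (0.34, then -0.11) and Ccr2 (0.099, then -0.34). Of all 13264 genes with a GC value, GC correction left 3.42% called between the TAC groups and 20.9% in Ctrl-TAC against Ctrl-Sham. Other scalings moved the median of all genes by at most 0.058. No paired analysis was possible because the groups share no animal numbers. The 26 low genes had 1 to 96 reads over all libraries, and differences in them were not tested at this depth beyond the fits with no minimum.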
